A study of Mus musculus with 4 samples.

Results

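The genes described here encode the subunits of the constitutive proteasome and its activators in mouse bone marrow progenitors. They were chosen by symbol alone: every gene named Psma, Psmb, Psmc or Psmd with a number, and Psme1 to Psme4, without pseudogenes and without the inducible subunits Psmb8, Psmb9 and Psmb10. That gave 41 of the 32227 genes in the matrices. They were 8 genes of the alpha ring, 3 catalytic and 5 other genes of the beta ring, 6 ATPases and 3 further genes of the base, 8 genes of the lid, 3 chaperones of base assembly (Psmd5, Psmd9 and Psmd10) and 4 activators. The last of the 41, Psmc3ip, shares the name but encodes a cofactor of meiotic recombination, not a subunit.

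The proteasome degrades proteins that carry ubiquitin. Its barrel-shaped core stacks rings of alpha subunits, which form the gate, around rings of beta subunits, of which Psmb5, Psmb6 and Psmb7 cut peptide bonds. The regulatory particle on its ends has a base, whose ATPases Psmc1 to Psmc6 unfold substrates, and a lid, whose Psmd14 removes the ubiquitin chains. Interferon induces Psmb8, Psmb9 and Psmb10, which take the places of Psmb5, Psmb6 and Psmb7 in the immunoproteasome, and also Psme1 and Psme2, which form an activator of peptide hydrolysis. In blood formation, maturing red cell precursors are known for extensive protein turnover.

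All mice were wild type and had been given cells of E0771, a mouse mammary tumour line, 3 days before surgery. The surgery group had ligation of the femoral artery, the main artery of the hind limb, and the other group had a sham operation. Marrow was taken 9 days after surgery and sorted for cells that lacked lineage markers and carried cKit, whether Sca1 was present or not, which is a stem and progenitor gate, so every sample shared the tumour cells and the sort; mice without tumour cells were not analysed here. Cells were captured with PIPseq, a droplet method that needs no microfluidic chip, in 2 libraries called batch 1 and batch 2. The hashtags, oligonucleotide labels put on cells before pooling, place 2 surgery and 2 sham replicates in each batch, which gives 4 replicates of each group. Whether each replicate is a single mouse is not given in the labels, so the spread between replicates may be partly technical. A second label calls batch 1 ligation and batch 2 sham. If that label holds, surgery cannot be told apart from batch, and the comparisons below set replicates of the same treatment against each other. The replicates were assigned by hashtag name, and wrong names in a batch would exchange its groups.

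After removal of called doublets there were 26818 cells with exactly 1 hashtag, and 4 barcodes occurred in both libraries. The replicates held 19392968 to 51576963 unique molecular identifiers (UMIs), with median UMIs per cell of 5860.5 to 7251.5 in batch 1 and 10291 to 12392 in batch 2. Cell classes were set by fixed marker genes, and each name stands for cells like that class. Of 22412 cells with a class, 5977 were neutrophil-granulocyte progenitors, 4285 monocyte progenitors, 3329 B cells, 2378 erythroid, 1764 stem and early multipotent, 1556 lymphoid-primed, 1278 basophil-mast and 630 megakaryocyte progenitors, 480 T, NK and innate lymphoid cells and 338 dendritic cell progenitors. No class was given to 16.4% of cells, of which 1282 lay just under the margin that separates classes. The labelled cell type is stem and progenitor cells, and the B, T and NK markers are those of cells a lineage gate is meant to remove. When cells were clustered, 44.7% of neutrophil-granulocyte, 51.3% of lymphoid-primed and 63.0% of stem and early multipotent cells took the same name, against 74.0% to 98.1% in the other 7 classes fitted. Neutrophil markers were read in several classes: per 10000 UMIs, the median monocyte progenitor held 28.4 UMIs of its own markers and 128.8 of the neutrophil-granulocyte list, which has highly abundant granule genes, and the median lymphoid-primed cell held 19.7 of its own, 13.2 of the neutrophil-granulocyte and 9.55 of the stem cell list. Values below are UMIs summed per replicate and class and scaled to counts per 1000000 (CPM), with the mean and SD of the replicates. Fold changes come from edgeR, as log2 ± SE, and a gene is said to be called, or to be higher or lower in a class, where its adjusted p was under 0.05 over all genes tested.

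Promoter sequences are shown because most of these genes were higher in the same classes, as described below, and their promoters are known to share short elements. RefSeq entries (GRCm38.p6) were found for 34 of the 41 genes and covered 250 bases before and 50 bases after the start. The motif TGACNNNGC, the core of the antioxidant response element that Nfe2l1 and Nfe2l2 bind, was found on either strand in 6 of the 34 promoters (17.6%), against 14.0% of 27025 gene promoters. CCGGAA, a core of ETS family motifs, was in 18 of the 34 (52.9%), against 16.7% of all promoters. CCAAT, which NF-Y binds, was in 14 (41.2%), against 41.1%. GAAANNGAA, part of interferon response elements, was in 6 (Psmb4, Psmd4, Psmc2, Psmd9, Psmb3 and Psme1; 17.6%), against 9.76%. A match of letters is no evidence of binding. The 250 bases before the start are printed 5′ to 3′ for Psmd9 and Psmb5, which stood out in erythroid and neutrophil-granulocyte progenitors, for Psme4, which stood out in B cells, and for Psmd12, which is described in lymphoid-primed progenitors; capitals mark TGACNNNGC or CCGGAA on either strand.
Psmd9 (GRCm38.p6, chr5:123227940-123228189, plus strand): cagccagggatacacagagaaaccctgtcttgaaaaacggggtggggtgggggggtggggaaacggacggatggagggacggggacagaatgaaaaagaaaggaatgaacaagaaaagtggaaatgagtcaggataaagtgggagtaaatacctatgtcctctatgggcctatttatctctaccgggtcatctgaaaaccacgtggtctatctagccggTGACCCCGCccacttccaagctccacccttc
Psmb5 (GRCm38.p6, chr14:54617996-54618245, minus strand): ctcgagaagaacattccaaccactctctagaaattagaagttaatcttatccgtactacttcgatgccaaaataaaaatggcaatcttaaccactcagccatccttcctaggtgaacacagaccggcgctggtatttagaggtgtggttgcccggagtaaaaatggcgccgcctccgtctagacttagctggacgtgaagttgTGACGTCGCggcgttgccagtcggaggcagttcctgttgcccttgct
Psme4 (GRCm38.p6, chr11:30771525-30771774, plus strand): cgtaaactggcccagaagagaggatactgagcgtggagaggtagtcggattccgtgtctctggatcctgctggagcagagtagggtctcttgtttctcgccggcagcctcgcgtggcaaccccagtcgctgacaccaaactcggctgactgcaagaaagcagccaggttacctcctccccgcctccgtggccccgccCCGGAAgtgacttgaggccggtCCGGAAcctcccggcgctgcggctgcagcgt
Psmd12 (GRCm38.p6, chr11:107479278-107479527, plus strand): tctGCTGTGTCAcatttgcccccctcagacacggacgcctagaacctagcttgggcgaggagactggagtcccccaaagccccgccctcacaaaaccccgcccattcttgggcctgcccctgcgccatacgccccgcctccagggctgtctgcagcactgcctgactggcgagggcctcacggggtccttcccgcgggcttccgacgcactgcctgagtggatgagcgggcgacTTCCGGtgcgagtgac
Psmd9 has 1 and Psmb5 has 1 match of TGACNNNGC, Psme4 has 2 matches of CCGGAA, and Psmd12 has 1 of each.

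Proteasome genes were highest in erythroid, monocyte and neutrophil-granulocyte progenitors. Summed over the 41 genes, they made up 8681 ± 386 CPM in erythroid progenitors (range 8210 to 9369 over 8 replicates), 7524 ± 193 in monocyte and 7074 ± 146 in neutrophil-granulocyte progenitors. The sums were 6434 ± 238 in megakaryocyte progenitors, 6145 ± 295 in B cells, 5888 ± 243 in lymphoid-primed progenitors, 5603 ± 129 in dendritic cell progenitors, 5556 ± 163 in stem and early multipotent cells, 5083 ± 349 in T, NK and innate lymphoid cells and 5029 ± 130 in basophil-mast progenitors. The lowest erythroid replicate (8210 CPM) was above the highest monocyte replicate (7761 CPM), and monocyte progenitors lay above neutrophil-granulocyte progenitors (lowest monocyte replicate 7275, highest neutrophil-granulocyte replicate 7250), and these above megakaryocyte progenitors (6805 against 6738), while B cells (5753 to 6642) overlapped both megakaryocyte and lymphoid-primed progenitors, and each class further down overlapped the next in this order. These CPM carry no TMM factors, the scaling between samples that the fits used. In the class fit below, the median log2 fold change was 0.47 in neutrophil-granulocyte and 0.39 in monocyte progenitors. The order of monocyte and neutrophil-granulocyte progenitors therefore depends on the measure. The classes also differed in depth and in cell cycle genes. Median UMIs per cell were 13053.5, 13778 and 16135 in erythroid, monocyte and neutrophil-granulocyte progenitors, against 2483 to 8172.5 in the other classes. Summed CPM of 15 genes of the G2 and M phases were 2824 ± 224 in erythroid, 1649 ± 125 in monocyte and 1080 ± 70.3 in neutrophil-granulocyte progenitors, against 3525 ± 378 in B cells and 1271 ± 97.2 in stem and early multipotent cells. The part of cell cycle and of depth in these differences was not tested. Thinning, below, evens the UMIs per cell but leaves the expected share of each gene in a cell unchanged.

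**Figure D1:**
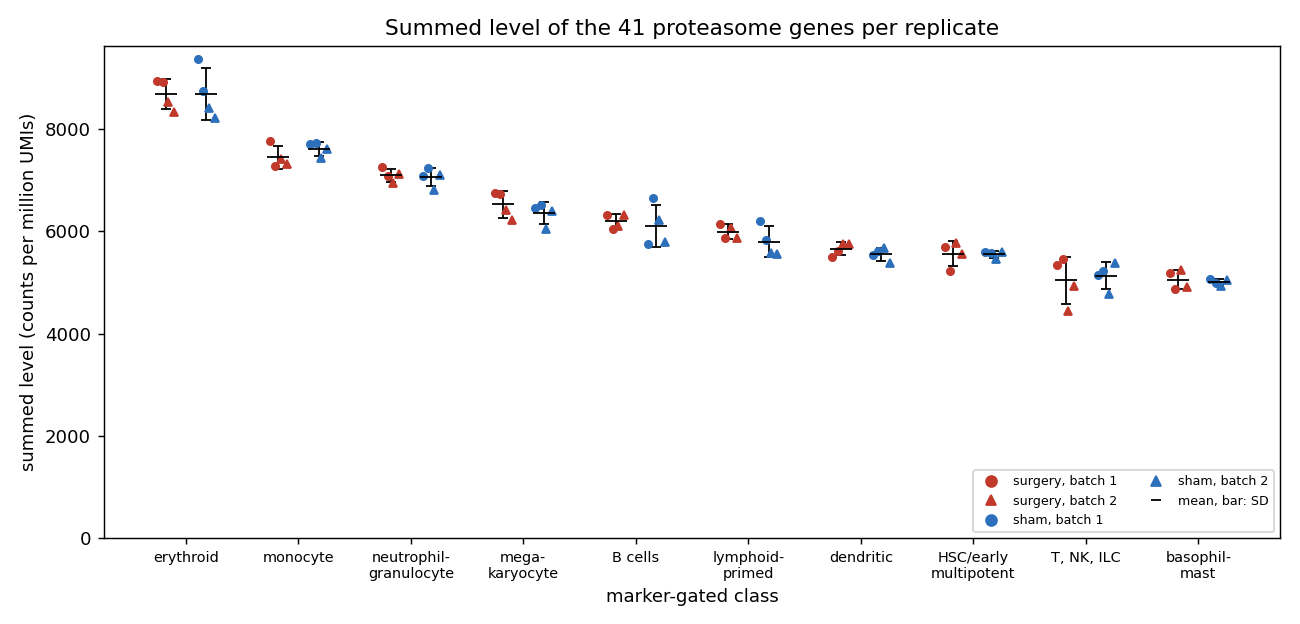
Summed CPM of the 41 proteasome genes (vertical axis, starting at 0) in each cell class, 1 point per hashtag replicate, surgery left of sham. Erythroid progenitors lie highest, at 8210 to 9369 CPM, and surgery and sham points overlap in each class.

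Each class was compared with the mean of the other 9 in one edgeR fit of 12046 genes, with the replicate as a block. It tested 39 of the 41 genes; Psma8, an alpha subunit of testis, and Psmb11, the beta subunit of thymic epithelium, were too low. Psmb11 had 30 UMIs in all cells and Psma8 had 1110, a mean of 3.97 CPM. In erythroid progenitors 36 of 39 genes were higher and 2 lower, where 41.9% of all genes were higher and 40.8% lower. In neutrophil-granulocyte progenitors 36 were higher and 1 lower (all genes 41.6% and 36.5%), and in monocyte progenitors 33 were higher and 1 lower (all genes 38.6% and 33.6%). These 39 genes had median log2 fold changes of 0.81, 0.47 and 0.39 in the 3 classes, in that order. Called higher in all of them were 30 genes: the 7 tested alpha subunits, the 7 tested beta subunits, the 6 ATPases, Psmd2 and Psmd4 of the base, 6 of 8 lid subunits, Psmd5 and Psmc3ip. With cells thinned to 2000 UMIs, 36, 33 and 26 genes were higher in erythroid, neutrophil-granulocyte and monocyte progenitors, and with classes from clusters the counts were 36, 37 and 36. Thinning left out the 2892 cells under 2000 UMIs. Dendritic cell progenitors and T, NK and innate lymphoid cells were not in the thinned fit, so its comparison was with fewer classes.

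**Figure D2:**
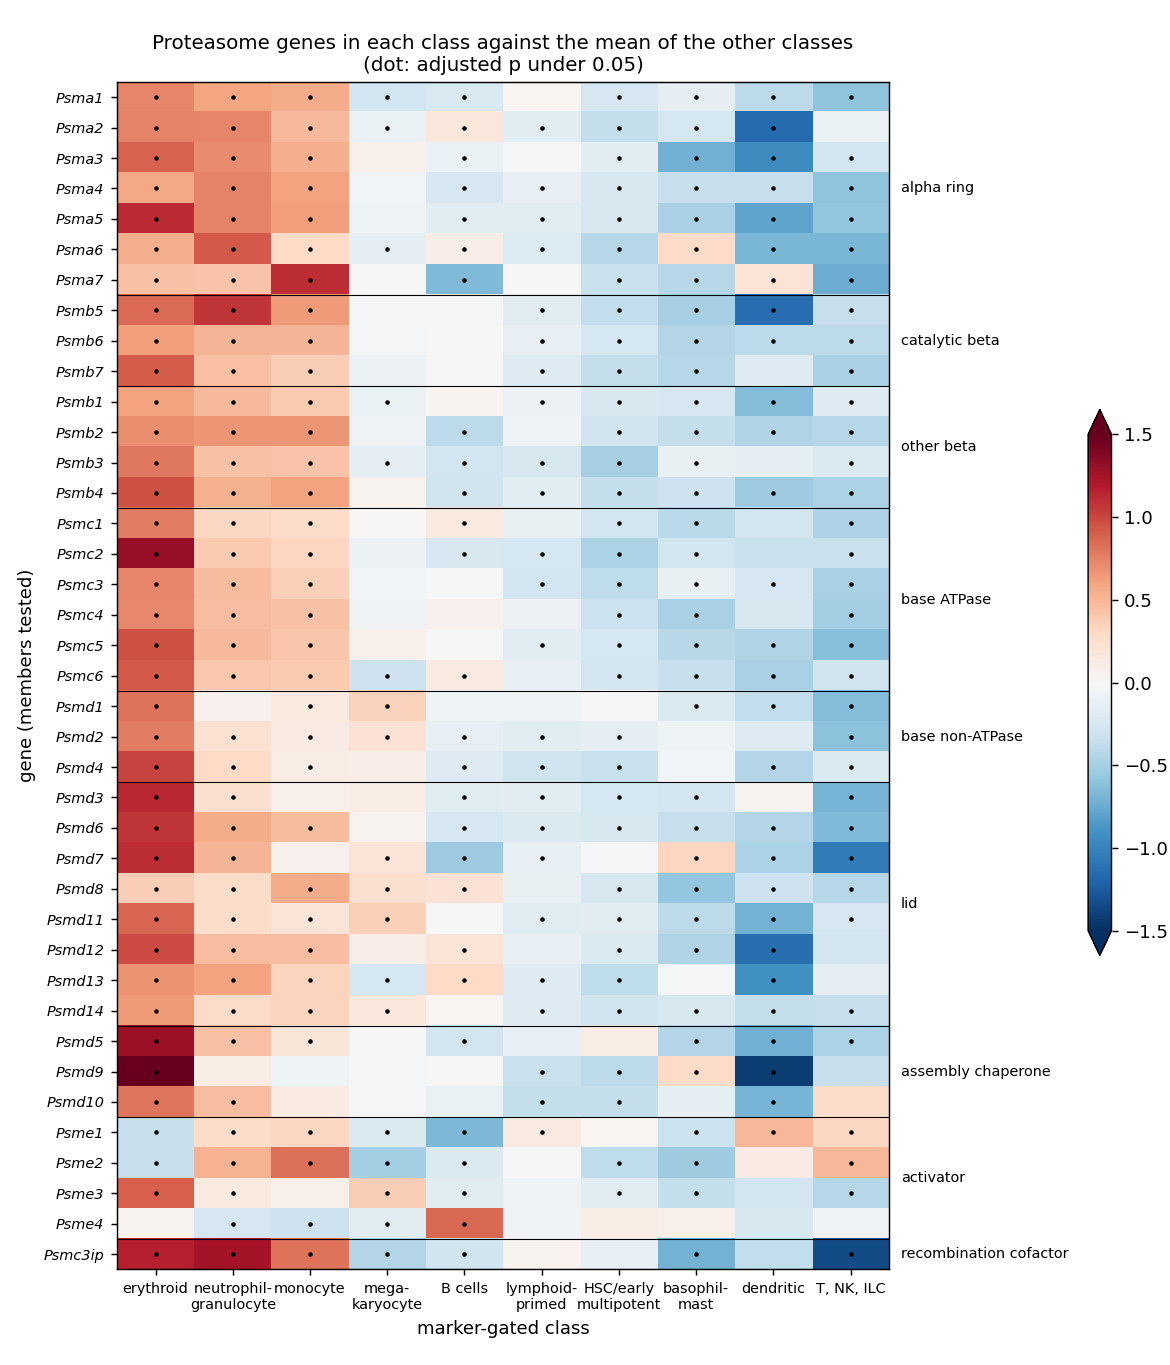
Log2 fold change of each of 39 proteasome genes (rows, grouped by role) in each cell class (columns) against the mean of the other classes. Rows of the core, base and lid share a colour in the erythroid, neutrophil-granulocyte and monocyte columns, whereas Psme1, Psme2 and Psme4 follow other patterns.

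Among the core subunits, the catalytic Psmb5, which holds the chymotrypsin-like site, differed most between classes. Its CPM, as lowest, median and highest of 8 replicates, were 258, 286 and 307 in neutrophil-granulocyte progenitors, 241, 260 and 298 in erythroid progenitors and 218, 231 and 260 in monocyte progenitors. Stem and early multipotent cells had 137, 147 and 158, and basophil-mast progenitors 104, 124 and 140. The neutrophil-granulocyte, erythroid and monocyte ranges overlapped one another and none reached down to the stem cell range. The log2 fold change against the other classes was 1.08 ± 0.03 in neutrophil-granulocyte progenitors (adjusted p = 6.6e-51), 0.85 in erythroid and 0.63 in monocyte progenitors, and Psmb5 was called lower in stem and early multipotent cells (-0.37), lymphoid-primed (-0.17), basophil-mast (-0.50) and dendritic cell progenitors (-1.14) and in T, NK and innate lymphoid cells (-0.34). Psmb6, with the caspase-like site, and Psmb7, with the trypsin-like site, were higher in the same 3 classes, by 0.62 and 0.91 in erythroid, 0.51 and 0.45 in neutrophil-granulocyte and 0.51 and 0.36 in monocyte progenitors. In the alpha ring, Psma6 was highest in neutrophil-granulocyte progenitors (321 ± 6.7 CPM; log2 fold change 0.92 ± 0.03), and Psma7 in monocyte progenitors, with 827, 858 and 934 CPM as lowest, median and highest replicate, against 525, 544 and 611 in erythroid progenitors (log2 fold change 1.105 ± 0.032 against the other classes). All 7 tested alpha genes were higher in each of the 3 classes.

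The regulatory particle followed the erythroid class most closely. All 6 ATPases, all 3 other base genes, all 8 lid genes and all 3 base chaperones were higher in erythroid progenitors, with median log2 fold changes of 0.85, 0.81, 0.93 and 1.29. Psmd9, a chaperone that escorts ATPases into the base, had 132, 164 and 173 CPM in erythroid progenitors as lowest, median and highest replicate, against medians of 23.7 to 52.5 CPM in the other classes. No replicate of another class exceeded 81.0 CPM. The log2 fold change was 2.19 ± 0.05 (adjusted p = 7.4e-62), the highest of any of these genes in any class. Its gene lies on chromosome 5 at chr5:123169413-123250131 (plus strand, GENCODE M21 on GRCm38); the RefSeq start behind the printed promoter lies within that span. Psmc2, one of the ATPases, followed with 1.31 ± 0.04 (155 ± 8.6 CPM in erythroid progenitors) and Psmd5, another base chaperone, with 1.29 ± 0.05 (94.7 ± 6.9 CPM). In neutrophil-granulocyte progenitors all 6 ATPases and all 8 lid genes were higher too, but by less, with medians of 0.43 and 0.38, and Psmd9 was not called there (0.11) or in monocyte progenitors (-0.07). Of the 39 genes, 30 had their highest fold change in erythroid progenitors.

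The activators shared this pattern only in part. Psme3, which forms a nuclear activator, was highest in erythroid progenitors (126 ± 10.8 CPM; log2 fold change 0.89), but Psme1 and Psme2 were the 2 genes lower there, by -0.34 ± 0.04 and -0.35 ± 0.04. Psme2 was highest in monocyte progenitors, with 310, 331 and 339 CPM as lowest, median and highest replicate, against 140, 154 and 182 in erythroid progenitors (log2 fold change 0.82 ± 0.04). Psme1 was highest in dendritic cell progenitors (327 ± 74.0 CPM; 0.50) and lowest in B cells (143 ± 15.8 CPM; -0.68). Reads of Psme2 may have been split with its near-identical copy Psme2b, which held 7161 UMIs against 68156 for Psme2. Psme4, an activator linked to histone breakdown in testis and to DNA repair, went another way again. It had 130, 157 and 174 CPM in B cells as lowest, median and highest replicate, against medians of 60.8 in neutrophil-granulocyte progenitors to 96.4 in stem and early multipotent cells (log2 fold change in B cells 0.86 ± 0.05, adjusted p = 1.9e-31). No replicate of any other class exceeded 134 CPM. The neutrophil-granulocyte and monocyte classes had it lower by -0.25 and -0.32, and its fold change in erythroid progenitors was 0.05. Psme4 lies at chr11:30771726-30880361 (plus strand). All 15 G2 and M phase genes were higher in B cells and in erythroid progenitors. The part of cell cycle in the Psme4 level was not tested.

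The remaining classes had these genes low or mixed. In stem and early multipotent cells 0 were higher and 33 of 39 lower (all genes 30.3% and 21.9%), led by Psmb3 (-0.50), Psmc2 (-0.47) and Psma6 (-0.43); with classes from clusters, 2 were higher and 28 lower. Leaving out batch 1 sham replicate 1, batch 2 sham replicate 2, batch 1 surgery replicate 1 or batch 2 surgery replicate 1 gave 1, 1, 1 and 2 higher. In lymphoid-primed progenitors 1 was higher, Psme1 (0.14), and 23 lower (all genes 28.5% and 19.5%), led by Psmd10 (-0.36), Psmd9 (-0.34) and Psmd4 (-0.30); with clusters 4 were higher, and from another random start, chosen after seeing the data, 6 higher and 15 lower. In basophil-mast progenitors 3 were higher, Psmd7 (0.32), Psmd9 (0.29) and Psma6 (0.28), and 31 lower (all genes 29.6% and 25.5%), led by Psma3 (-0.72), Psmc3ip (-0.71) and Psmd8 (-0.58). In dendritic cell progenitors 2 were higher, Psme1 (0.50) and Psma7 (0.20), and 26 lower (all genes 17.7% and 19.9%), led by Psmd9 (-1.43), Psma2 (-1.15) and Psmb5 (-1.14); with clusters 17 were lower, and 1 was higher without batch 1 sham replicate 2 or batch 1 surgery replicate 2. In T, NK and innate lymphoid cells 2 were higher, Psme2 (0.50) and Psme1 (0.31), and 31 lower (all genes 24.7% and 26.5%), led by Psmc3ip (-1.35), Psmd7 (-1.05) and Psma7 (-0.75). Megakaryocyte progenitors had 7 higher and 11 lower (all genes 25.2% and 24.2%), with Psme3 (0.37), the lid subunit Psmd11 (0.36) and Psmd1 (0.34) at the top and Psme2 (-0.51), Psmc3ip (-0.44) and Psmc6 (-0.31) at the bottom; thinned cells gave 1 higher, RLE scaling 9 higher and 7 lower, clusters 6 higher and 27 lower, and 6, 6 and 7 were lower without batch 2 sham replicate 2, batch 2 surgery replicate 1 and batch 1 surgery replicate 2. B cells had 8 higher and 19 lower (all genes 36% and 33%), with Psme4 (0.86), Psmd13 (0.30) and Psmd8 (0.22) at the top and Psme1 (-0.68), Psma7 (-0.66) and the lid subunit Psmd7 (-0.54) at the bottom. Leaving out a batch 1 sham or surgery replicate 2, using clusters or thinning gave 5, 4 and 2 higher in B cells. Psmc3ip, the recombination cofactor, had its highest fold changes in neutrophil-granulocyte progenitors (1.25 ± 0.07) and erythroid progenitors (1.17). Its CPM there were 46.1 ± 3.6 and 46.8 ± 5.2, in that order.

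The inducible subunits ran against the rest in erythroid progenitors. Psmb8 was lower there by -2.97 ± 0.05, Psmb9 by -1.69 ± 0.05 and Psmb10 by -1.19 ± 0.05, where their constitutive counterparts were higher. Psmb8 averaged 46.7 ± 11 CPM in erythroid progenitors, against 265 ± 18.9 in basophil-mast to 716 ± 101 in dendritic cell progenitors. It was called higher in dendritic cell (1.02), lymphoid-primed (0.88), monocyte (0.83) and neutrophil-granulocyte progenitors (0.43), T, NK and innate lymphoid cells (0.41) and stem and early multipotent cells (0.33), and lower in the other 4 classes. As a share of the UMIs of Psmb8 and Psmb5 together, Psmb8 made up 14.99% ± 3.5 in erythroid and 55.3% ± 1.1 in neutrophil-granulocyte progenitors, 74.1% ± 2.1 in stem and early multipotent cells, 78.2% ± 2.2 in lymphoid-primed and 87.2% ± 5.2 in dendritic cell progenitors (SD, n = 8). The erythroid replicates spanned 10.99% to 20.2%, below every replicate of the other classes. UMIs of the 2 genes were not scaled by length, so only differences between classes are read from this share.

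**Figure D3:**
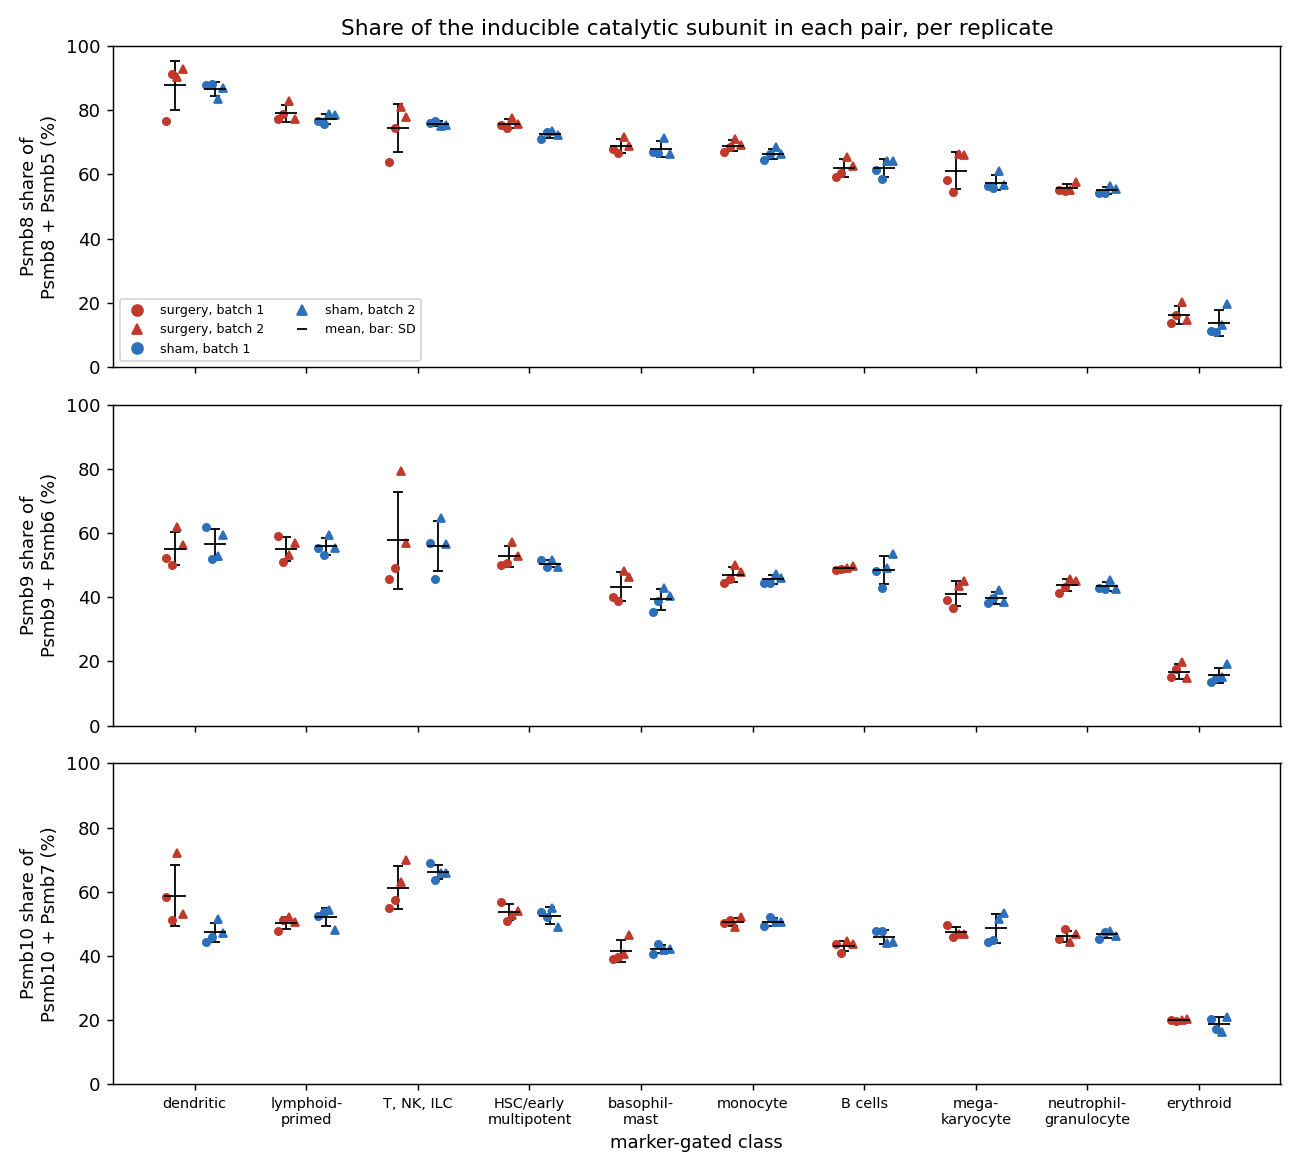
Share of Psmb8 in the UMIs of Psmb8 and Psmb5, in percent, per cell class, 1 point per hashtag replicate, surgery left of sham. Erythroid progenitors lie at 10.99% to 20.2% and dendritic cell progenitors at 76.5% to 92.8%.

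Other genes of the pathway were followed as lists, to be read against the shares of all genes called higher and lower given above for each class. Of 6 assembly factors of the core, 5 were higher in each of erythroid, neutrophil-granulocyte, monocyte and megakaryocyte progenitors, with Psmg2 at 1.29 and Psmg3 at 1.12 in erythroid and Psmg1 at 1.11 in neutrophil-granulocyte progenitors. Pomp, which drives maturation of the core, was lower in basophil-mast progenitors (-1.02). Of the subunits with other names, the ubiquitin receptor Adrm1 was higher in erythroid progenitors (1.03 ± 0.05), as was the inhibitor Psmf1 (2.07 ± 0.06). Sem1, a small lid subunit, was instead higher in neutrophil-granulocyte (1.52 ± 0.03) and monocyte progenitors (1.05 ± 0.03) and lower in erythroid progenitors (-0.09). Of 8 genes of transcriptional control, 6 were higher and 1 lower in erythroid progenitors, where Nfe2l2 was at 0.85 and Nfe2l1, which restores proteasome genes when the proteasome is inhibited, at -0.49. Of 11 shuttles, receptors and deubiquitinases, 7 were higher and 3 lower in erythroid progenitors, with Txnl1 at 1.54; of all genes, 41.9% were higher and 40.8% lower there.

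No proteasome gene was called between surgery and sham in any comparison. Over all cells the 41 genes summed to 6952 ± 150 CPM after surgery and 7012 ± 125 CPM after sham (SD, n = 4 each), and 0 of 40 tested genes were called by edgeR, where 0.0416% of all genes were called. The median log2 fold change was 0.00, and 23 of 40 genes were above 0. Precision was high here, and the 95% intervals of 39 of 40 genes lay within 0.25 on the log2 scale of no change. The lowest fold changes among genes of at least 20 CPM were those of the base chaperones Psmd9 (-0.08 ± 0.07), Psmd5 (-0.07 ± 0.03) and Psmd10 (-0.05 ± 0.05), and the highest those of Psmb5 (0.04 ± 0.04), the base scaffold Psmd2 (0.03 ± 0.04) and Psma6 (0.03 ± 0.05). Psmd5 had 53.1 and 54.8 CPM in surgery replicates of batch 1 and 52.5 and 52.1 in batch 2, against 58.7 and 58.5 in sham replicates of batch 1 and 53.8 and 54.6 in batch 2. The surgery values were below the sham values within batch 1 and within batch 2, and the groups overlapped over both. The share of all genes separated in this way within each batch was not counted. With cells thinned to 2000 UMIs the signs of Psmd5 (0.0041), Psmd10 (0.09) and Psmb5 (-0.04) turned. At an unadjusted p under 0.05 there were 0 of the 40 genes, against 4.44% of all genes. In sums over all cells, fewer cells of a class and less RNA per cell cannot be told apart, which is why the classes were also compared one by one.

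**Figure D4:**
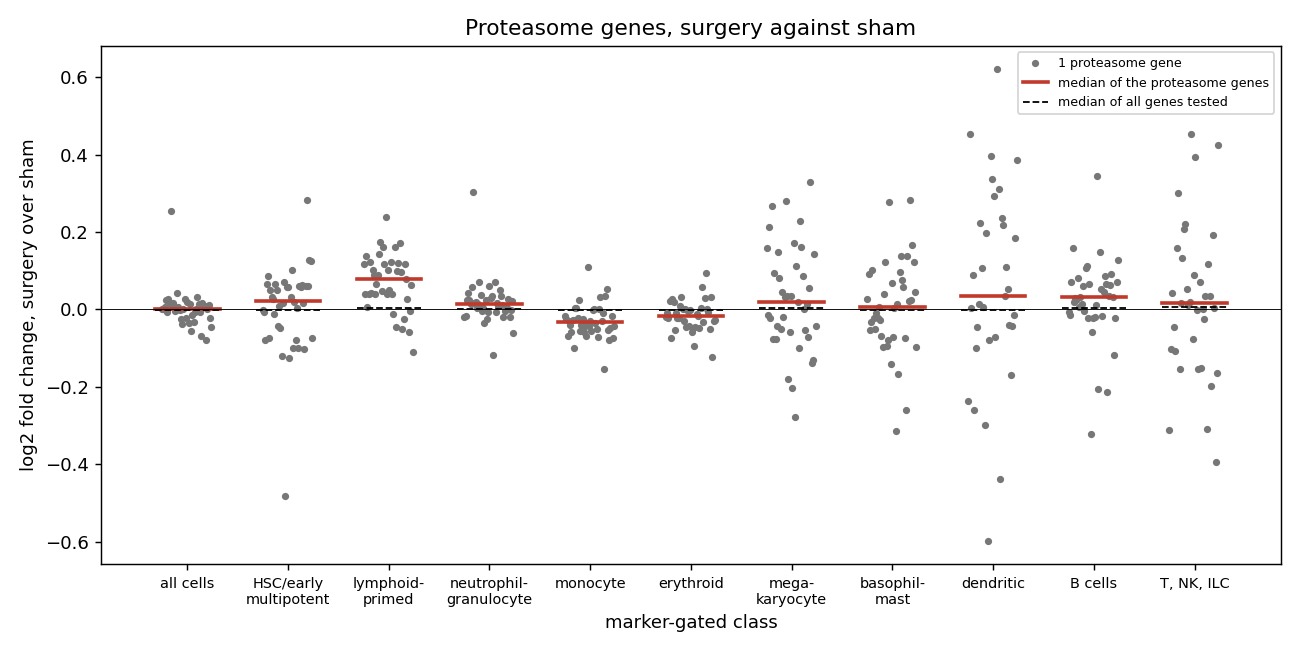
Log2 fold change of surgery over sham (vertical axis) for each proteasome gene in all cells and in each class, 1 point per gene. Points centre near 0 in each comparison, and the widest spread is that of dendritic cell progenitors, from -0.60 to 0.62.

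The same held within the classes, where 0 proteasome genes were called by edgeR in each of the 10. The shares of all genes called were 0.04% in stem and early multipotent cells, 0.357% in lymphoid-primed, 0.038% in neutrophil-granulocyte and 0.0965% in monocyte progenitors, 0.0404% in B cells and 0% in erythroid, megakaryocyte, basophil-mast and dendritic cell progenitors and in T, NK and innate lymphoid cells. At an unadjusted p under 0.05 there were 1 proteasome gene in each of stem and early multipotent cells, lymphoid-primed, neutrophil-granulocyte, monocyte, erythroid, basophil-mast and dendritic cell progenitors and T, NK and innate lymphoid cells, 2 in B cells and 3 in megakaryocyte progenitors, where 3.12% to 6.74% of all genes in these classes passed. DESeq2, run as an alternative in each comparison, also called 0. Precision differed: the 95% intervals lay within 0.25 of no change for 38 of 40 genes in neutrophil-granulocyte, 37 of 40 in monocyte and 38 of 39 in erythroid progenitors, for 21 of 40 in stem and early multipotent cells, 14 of 39 in lymphoid-primed progenitors, 12 of 39 in B cells, 10 of 39 in basophil-mast and 9 of 39 in megakaryocyte progenitors, and for none of the 33 in dendritic cell progenitors or the 35 in T, NK and innate lymphoid cells. Small changes in the rarer classes were therefore not detectable at this depth.

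Lymphoid-primed progenitors had the most one-sided fold changes. Of 39 genes, 32 (82.1%) were above 0, against 51.0% of all genes, with a median of 0.08 for these genes and 0.00 for all genes; the 41 genes summed to 5985 ± 144 CPM after surgery and 5792 ± 303 CPM after sham. The median was 0.03 in batch 1, with 23 of 39 above 0, and 0.13 in batch 2, with 33 of 39. The sign was the same in each batch for 53.8% of these genes, against 51.3% of all genes. Psmb7, the trypsin-like subunit (chr2:38588036-38644087, minus strand), had 171 and 167 CPM in surgery replicates of batch 1 and 167 and 169 in batch 2, against 160 and 152 in sham replicates of batch 1 and 136 and 157 in batch 2. All surgery values were above all sham values, by 0.18 ± 0.08 on the log2 scale (adjusted p = 0.70). The lid subunit Psmd12 had 74.2, 75.6, 75.3 and 76.0 CPM after surgery, against 61.5, 71.9, 65.1 and 69.0 CPM after sham, again without overlap (0.16 ± 0.10, adjusted p = 0.84). Psma3 of the alpha ring (0.14 ± 0.07) and the ubiquitin receptor Psmd4 (0.10 ± 0.08) were the other 2 of 4 genes whose groups did not overlap, all higher after surgery; of all genes, 1.48% did so upward and 1.75% downward. The highest of at least 20 CPM were Psmc3ip (0.24 ± 0.19), Psmb7 and Psmd3 of the lid (0.17 ± 0.10), and the lowest Psme4 (-0.11 ± 0.11), Psme1 (-0.06 ± 0.07) and Psmd5 (-0.05 ± 0.15). Among the G2 and M phase genes of this class, 13 of 15 were also above 0 and 0 were called, with a summed level of 1337 ± 179 CPM after surgery and 1272 ± 117 CPM after sham; their part in the proteasome values was not tested.

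**Figure D5:**
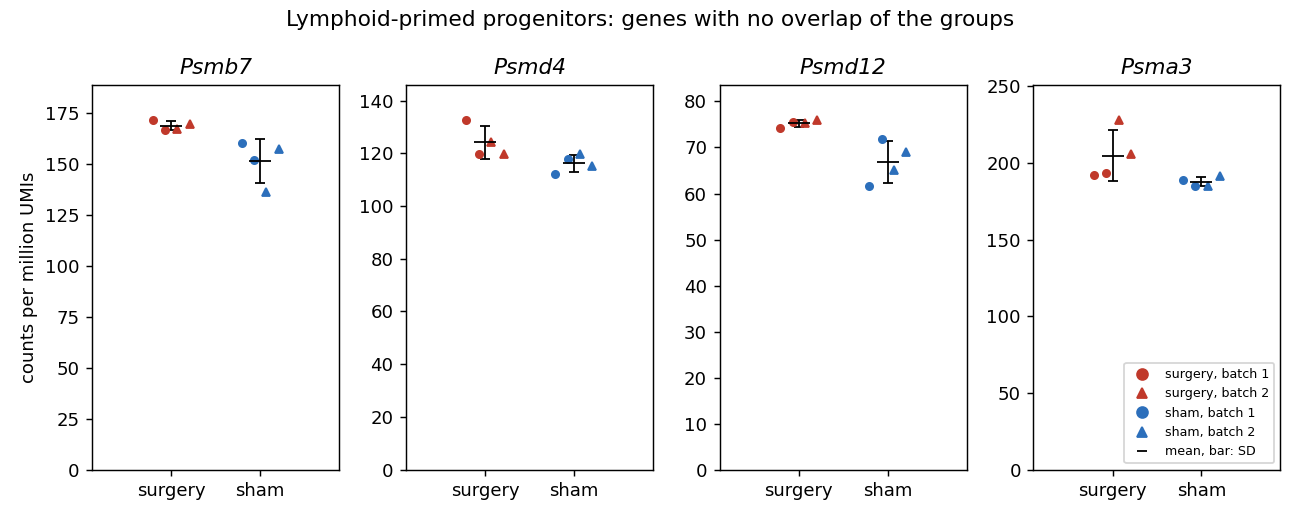
CPM of Psmb7, Psmd4, Psmd12 and Psma3 in lymphoid-primed progenitors, 1 point per hashtag replicate with batches marked, surgery left of sham, with group means and SD bars. Surgery points lie above sham points for each of the 4 genes, and none was called.

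Monocyte progenitors leaned the other way. Of 40 genes, 9 (22.5%) were above 0, against 49.3% of all genes, with a median of -0.03, and the median was -0.03 within batch 1 and within batch 2. The sign was the same in each batch for 60% of these genes, against 48.9% of all genes. The 41 genes summed to 7439 ± 222 CPM after surgery and 7609 ± 134 CPM after sham. The lowest was Psmd5 (-0.15 ± 0.06), with 48.2 and 45.9 CPM in surgery replicates of batch 1 and 46.1 and 42.3 in batch 2, against 52.2 and 54.4 in sham replicates of batch 1 and 49.0 and 46.8 in batch 2. The surgery values lay below the sham values within each batch, and the groups overlapped across batches. How many of all genes did so within each batch was not counted. Psmd9 (-0.08 ± 0.07) and Psme3 (-0.07 ± 0.05) followed, and Psmc3ip (0.11 ± 0.07) and the lid subunits Psmd7 (0.05 ± 0.06) and Psmd6 (0.04 ± 0.05) were highest. Of the 15 G2 and M phase genes 2 were above 0.

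In the remaining classes the extremes were small or imprecise. In neutrophil-granulocyte progenitors the highest were Psmd11 (0.07 ± 0.04), Psmb5 (0.07 ± 0.03) and Psmc5 (0.06 ± 0.04), and the lowest Psmd10 (-0.12 ± 0.06), Psme4 (-0.06 ± 0.05) and Psmc2 (-0.04 ± 0.05). Psmb5 had 307 and 306 CPM in surgery replicates of batch 1 and 282 and 274 in batch 2, against 289.9 and 298 in sham replicates of batch 1 and 258 and 274 in batch 2, so the surgery values lay above the sham values within each batch, least so in batch 2, and the groups overlapped across batches; with cells thinned to 2000 UMIs its fold change was -0.03. For Psmb5 too, the share of all genes separated within each batch was not counted. In erythroid progenitors Psmd6 (0.09 ± 0.06), Psmd3 (0.06 ± 0.06) and Psme1 (0.03 ± 0.06) were highest and Psme2 (-0.12 ± 0.06), Psmd10 (-0.10 ± 0.09) and Psma5 (-0.07 ± 0.05) lowest. In stem and early multipotent cells Psmd9 (0.28 ± 0.15), Psme2 (0.13 ± 0.08) and Psme3 (0.13 ± 0.12) were highest and Psmc3ip (-0.48 ± 0.17), Psmc6 (-0.12 ± 0.10) and Psmc1 (-0.12 ± 0.10) lowest; with classes from clusters, Psmd9 and Psme3 were below 0. In megakaryocyte progenitors Psmd9 (0.33 ± 0.19), Psmc2 (0.28 ± 0.15) and Psma5 (0.27 ± 0.11) were highest and Psmd10 (-0.28 ± 0.22), Psmc6 (-0.20 ± 0.15) and Psme1 (-0.14 ± 0.11) lowest. Basophil-mast progenitors had Psmd8 (0.28 ± 0.12), Psme1 (0.17 ± 0.09) and Psmd6 (0.14 ± 0.15) highest and Psmd10 (-0.31 ± 0.19), Psmd5 (-0.26 ± 0.18) and Psmd12 (-0.17 ± 0.14) lowest, and Psmd5 was the 1 gene there whose surgery values all lay below the sham values, as did those of 1.26% of all genes (0.912% all lay above).

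In B cells Psmd10 (0.34 ± 0.15), Psma4 (0.16 ± 0.14) and Psmd12 (0.15 ± 0.13) were highest and Psmc3ip (-0.32 ± 0.27), Psmd5 (-0.21 ± 0.13) and Psmd11 (-0.20 ± 0.09) lowest. The 15 G2 and M phase genes were all above 0 in B cells and 0 were called, with a summed level of 3675 ± 400.4 CPM after surgery and 3376 ± 337 CPM after sham; their part in the proteasome values was not tested. In dendritic cell progenitors Psmd1 (0.62 ± 0.36), Psma2 (0.45 ± 0.25) and Psmc3 (0.40 ± 0.25) were highest and Psmb7 (-0.60 ± 0.24), Psmd13 (-0.44 ± 0.36) and Psmb5 (-0.30 ± 0.34) lowest. Psmb7 had 145, 170, 97.1 and 138 CPM after surgery there, against 207, 208, 193 and 224 CPM after sham, without overlap, as for 1.11% of all genes; its adjusted p was 0.999, its fold change was 0.06 with classes from clusters, and in lymphoid-primed progenitors it had the other sign. Psmb2 was the 1 gene there with all surgery values above all sham values (1.01% of all genes). In T, NK and innate lymphoid cells Psmc2 (0.45 ± 0.32), Psme4 (0.42 ± 0.24) and Psmc5 (0.39 ± 0.36) were highest and Psme2 (-0.39 ± 0.16), Psma1 (-0.31 ± 0.20) and Psmd3 (-0.31 ± 0.34) lowest. Psme2 had 210, 285, 291 and 273 CPM after surgery, against 435, 372, 297 and 339 CPM after sham, without overlap (1.47% of all genes; 1.12% the other way). In these cells the summed level of 8 neutrophil-granulocyte markers, all detected, was 520 to 4657 CPM after surgery and 577 to 810 CPM after sham, and that of 11 mature neutrophil markers, of which 6 were at 0, was 108 to 1941 CPM after surgery and 71.0 to 151 CPM after sham. Of the 7 G2 and M phase genes tested there, 0 were above 0, with a median of -0.58. The part of these levels in the Psme2 values was not tested. Over the classes, the fold changes of the catalytic subunits spanned -0.30 to 0.22 for Psmb5, -0.10 to 0.20 for Psmb6 and -0.60 to 0.18 for Psmb7, and those of the activators -0.14 to 0.17 for Psme1, -0.39 to 0.13 for Psme2, -0.16 to 0.19 for Psme3 and -0.11 to 0.42 for Psme4.

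The surgery effect was also compared between the batches by an interaction term, and 0 proteasome genes were called in any comparison. The shares of all genes called were 0% over all cells and in B cells, 0.06% in stem and early multipotent cells, 0.0396% in lymphoid-primed, 0.0076% in neutrophil-granulocyte, 0.0482% in monocyte, 0.00976% in erythroid, 0.0954% in megakaryocyte, 0.133% in basophil-mast and 0.104% in dendritic cell progenitors and 0.022% in T, NK and innate lymphoid cells. Over all cells, 5 of 40 genes were above 0 in batch 1 and 28 of 40 in batch 2, with medians of -0.03 and 0.03. The median of all genes was -0.0023 in each batch. Of the 40 genes, 32.5% had the same sign in each batch, against 45.9% of all genes.

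The inducible subunits were set beside the members, and none was called by edgeR. Psmb8 over all cells had 385, 379, 384 and 376 CPM after surgery, against 338, 343, 335 and 363 CPM after sham. The groups did not overlap (0.16 ± 0.03, adjusted p = 0.61), and DESeq2 called it (adjusted p = 0.014). The share of all genes without overlap over all cells, and the share that DESeq2 called, were not counted. In lymphoid-primed progenitors it had 652, 586, 686 and 567 CPM after surgery, against 577, 546, 519 and 515 CPM after sham (0.22 ± 0.07, adjusted p = 0.28), in stem and early multipotent cells 480, 398, 491 and 452 CPM, against 387, 432, 394 and 383 CPM (0.19), and the fold change was 0.11 in both neutrophil-granulocyte and monocyte progenitors. Earlier results of these data on Psmb8 were known when it was chosen, so its values here are no independent evidence. Psmb9 averaged 186 ± 9.9 CPM after surgery and 173 ± 8.5 CPM after sham over all cells, and Psmb10 averaged 160 ± 5.2 and 160 ± 3.6 CPM. No gene of the lists of assembly factors, other-named subunits, transcriptional control, ubiquitin genes, shuttles or the G2 and M phases was called in any comparison of surgery and sham.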

How the data were processed

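The deposited matrices hold raw UMI counts per gene and barcode that the authors made; Cell Ranger and GRCm38 stand in the submitters' processing notes, with no version or role. The use of strand and the handling of reads that match several genes are not given in the sources used here, so a gene cannot be told apart from an antisense partner or a near-identical copy. Hashtag counts stand in the same matrices, per the file headers, and made up 22.2% of counts in batch 1 and 16.1% in batch 2; they were kept out of gene tests.

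Barcodes were kept where they had 500 or more genes, 1000 or more UMIs and no more than 10% of UMIs from mitochondrial genes (17065 of 18094 and 13568 of 14179). Exactly 1 hashtag reached 200 counts in 86.0% and 90.4% of them. Scrublet called 1.31% and 0.803% of barcodes as doublets, which were removed; it called 18.6% and 18.0% of barcodes with several hashtags, so doublets of 1 hashtag may remain. Cells took the class with the highest mean marker z-score, given at least 3 detected markers and a margin of 0.1 over the next class (scanpy 1.11.5, Python 3.11.15). Eosinophil progenitors, mature neutrophils, macrophages, endothelial or stromal and epithelial cells had under 20 cells in at least 1 replicate and were not fitted.

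Counts were summed per replicate and class and tested with edgeR 4.0.16 (R 4.3.3): quasi-likelihood test, filterByExpr, TMM scaling, batch as a term, Benjamini-Hochberg adjustment over all genes of each comparison, threshold 0.05. Class comparisons used 1 fit with the hashtag replicate as a block. The scripts were tested on simulated data. CPM carry no TMM factors. Intervals cover 95%.

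Named were, in each comparison without calls, the 3 highest and 3 lowest genes of at least 20 CPM, in class comparisons the 3 highest and 3 lowest called genes, and throughout the catalytic subunits, the activators and the inducible subunits; replicate values of further genes whose groups did not overlap were added after their values were seen. The genes and lists were chosen with earlier results of these data known. Alternatives were DESeq2, RLE scaling, no low-count filter, no batch term, a replicate block, each replicate left out, clusters as classes (also from another random start, chosen after seeing the data), a hashtag minimum of 500, doublets kept and cells thinned to 2000 UMIs. Gene positions are from GENCODE M21 on GRCm38, the deposited build. Some genes of the pathway lists are not reported here.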

Additional observations from a re-analysis of the deposited data

Results flagged for a closer look

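Of 198 groups of 4 replicates, 7 held 1 replicate far from the other 3. Chance alone flags about 1 in 20 such groups, so 7 of 198 is no excess. Most groups were of genes named for extreme fold changes, for which that rate is approximate. All 7 replicates were of batch 1, whose cells were shallower, and the part of depth was not tested.

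Over all cells, the summed level of the subunits was 7174.5 CPM in surgery replicate 1 of batch 1, with the other surgery replicates at 6853 to 6904 CPM. Psme1, which encodes a chain of the activator, read 156.5 CPM in erythroid progenitors of the same replicate, with the others at 145.0 to 146.1 CPM. Psmd13, a lid subunit, read 130.5 CPM in its dendritic cell progenitors, with the others at 56.4 to 62.6 CPM. That replicate had 27 dendritic cell progenitors, so its Psmd13 value rests on few UMIs. In surgery replicate 2 of batch 1, the base subunit chaperone gene Psmd5 read 21.5 CPM in basophil-mast progenitors, with the others at 33.5 to 35.6 CPM, and the alpha subunit gene Psma4 read 98.8 CPM in B cells, with the others at 154.1 to 164.9 CPM. In sham replicate 1 of batch 1, the inducible subunits summed to 1321.7 CPM in dendritic cell progenitors, with the other sham replicates at 1058 to 1075 CPM. This sum came from 20 cells. Psme1 read 261.6 CPM in lymphoid-primed progenitors of that replicate, with the others at 225.8 to 229.0 CPM.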

How the results depend on the processing

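Proteasome genes called between surgery and sham stayed at 0 in all 11 comparisons under each alternative that could be fitted. Deviations of same-numbered replicates had correlations of 0.0033 in batch 1 and 0.00039 in batch 2. With 2 replicates of each group in a batch, these values cannot exclude a pairing. With the replicate block the count of called genes was also 0. Counts of class calls that moved by over 1.5 times are given first. RLE scaling gave 1 gene higher in stem and early multipotent cells (main 0), 2 lower in monocyte (1) and 7 lower in megakaryocyte progenitors (11). Without the low-count filter, 1 was higher in stem and early multipotent cells, 0 lower in neutrophil-granulocyte progenitors (1), and 1 higher in dendritic cell progenitors (2) and in T, NK and innate lymphoid cells (2). With clusters as classes, 2 were higher in stem and early multipotent cells, 4 higher in lymphoid-primed progenitors (1), 4 higher in B cells (8), and 2, 27 and 17 lower in monocyte, megakaryocyte and dendritic cell progenitors (1, 11 and 26). Clusters from another random start, an alternative chosen after seeing the data for the class comparisons alone, gave 3 higher in stem and early multipotent cells, 6 higher and 15 lower in lymphoid-primed progenitors (1 and 23), 5 higher in B cells, and 2 and 24 lower in monocyte and megakaryocyte progenitors. Thinning to 2000 UMIs gave 2 higher in stem and early multipotent cells, 3 lower in monocyte progenitors, 1 higher in megakaryocyte progenitors (7) and 2 higher in B cells; it used fewer UMIs, and other causes were not tested. Within 1.5 times, RLE scaling gave 18 lower in dendritic cell progenitors (26) and 23 lower in T, NK and innate lymphoid cells (31), and no low-count filter gave 35 lower in dendritic cell progenitors. Leaving out 1 replicate gave 0 to 2 higher in stem and early multipotent cells, 1 to 2 higher in dendritic cell progenitors, 5 to 8 higher in B cells and 6 to 10 lower in megakaryocyte progenitors. Dendritic cell progenitors and T, NK and innate lymphoid cells could not be fitted when thinned, and the 2892 cells under 2000 UMIs were left out.

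Signs turned for genes that were not called. The log2 fold changes of surgery over sham after thinning were, over all cells, 0.0041 for Psmd5, 0.087 for Psmd10, -0.041 for Psmb5 and -0.0016 for Psmb10, in stem and early multipotent cells 0.24 for Psmc1 and -0.093 for Psmb10, and in lymphoid-primed progenitors 0.11 for Psme1, 0.087 for Psmd5 and -0.11 for Psmb10. In neutrophil-granulocyte progenitors they were 0.19 for Psmd10, 0.060 for Psme4, -0.0037 for Psmc5 and -0.034 for Psmb5, in monocyte progenitors 0.052 for Psme3, -0.064 for Psmd7 and 0.083 for Psmb10, in erythroid progenitors -0.055 for Psmd3, in megakaryocyte progenitors -0.085 for Psmb9, and in B cells 0.042 for Psmb10, -0.000605 for Psmb9 and -0.037 for Psmb8. With clusters they were, in stem and early multipotent cells, -0.0012 for Psme3, -0.000619 for Psmd9 and -0.00012 for Psmb10, in lymphoid-primed progenitors 0.0027 for Psme4 and -0.019 for Psmb10, in neutrophil-granulocyte progenitors 0.030 for Psme4, in basophil-mast progenitors -0.0056 for Psmb10 and -0.025 for Psmb8, and in dendritic cell progenitors 0.064 for Psmb7, 0.051 for Psmb5 and -0.053 for Psma2. Without the filter they were -0.0020 for Psmb10 and -0.021 for Psmb8 in basophil-mast and -0.032 for Psmb10 and -0.0068 for Psmb8 in dendritic cell progenitors, and the replicate block gave -0.0072 for Psmb8 in basophil-mast progenitors.

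Leaving out 1 replicate gave ranges that crossed 0 over all cells for Psmb10 (-0.0036 to 0.028) and Psma6 (-0.0044 to 0.076), in stem and early multipotent cells for Psmb10 (-0.046 to 0.11), in lymphoid-primed progenitors for Psmd5 (-0.15 to 0.074) and Psme4 (-0.21 to 0.0036), in monocyte progenitors for Psmd6 (-0.00834 to 0.067) and Psmd7 (-0.0043 to 0.10), and in erythroid progenitors for Psme1 (-0.0039 to 0.070). They also did in basophil-mast progenitors for Psmb10 (-0.080 to 0.076) and Psmb8 (-0.038 to 0.061), in dendritic cell progenitors for Psmb10 (-0.13 to 0.22) and Psmb8 (-0.028 to 0.15), in B cells for Psmb10 (-0.12 to 0.0078) and Psmb8 (-0.0040 to 0.11), and in T, NK and innate lymphoid cells for Psmb9 (-0.0085 to 0.21) and Psmc5 (-0.068 to 0.87). The cause of these turns was not tested. The lymphoid-primed median stayed between 0.04 and 0.10 and the monocyte median between -0.05 and -0.0080.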

Other observations

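Genes that make and activate ubiquitin, the tag that the proteasome reads, also differed between cell classes, but not all in one direction. Each was set against the mean of the other classes with edgeR over all genes tested, and the values named here passed an adjusted p under 0.05. Rps27a, which encodes ubiquitin fused to a ribosomal protein, was higher in neutrophil-granulocyte progenitors by 0.76 ± 0.03 on the log2 scale and lower in dendritic cell progenitors (-0.89 ± 0.04). The polyubiquitin gene Ubb was higher in monocyte progenitors (0.52 ± 0.03) and in neutrophil-granulocyte progenitors (0.46 ± 0.03), and lower in dendritic cell progenitors (-0.95 ± 0.05). Of the genes for ubiquitin-activating enzymes, Uba6 was higher in B cells (0.91 ± 0.05) and lower in neutrophil-granulocyte progenitors (-0.73 ± 0.05), where Uba1 was higher (0.26 ± 0.04). These are descriptions of gated classes, with 1 value per replicate and class.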
